A study of Rattus norvegicus with 10 samples.

Results

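The miR-29 family of rat microRNAs (miRNAs) was described in 10 small RNA libraries from subcutaneous tissue. Its members were taken as every mature miRNA that the deposited tables list as rno-miR-29a, rno-miR-29b or rno-miR-29c. That gave 7 of 723 names: the 3 main arms rno-miR-29a-3p, rno-miR-29b-3p and rno-miR-29c-3p, and 4 arms from the 5p side of the hairpins. Of these, 6 passed the filter on low counts (a level of 1 cpm or more, the CPM scale of read counts set against the library total, in 5 or more of the 10 libraries) and were tested among 359 miRNAs, and the remaining arm, rno-miR-29b-1-5p, had no read in any library.

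All animals were female Wistar rats with collagen induced arthritis (CIA), a model of rheumatoid arthritis raised by injecting bovine type II collagen in adjuvant. CIA_B animals were sampled before any therapy. MS animals received mechanical stimulation, a short needle inserted and twirled at points of the lower back and the leg, and were sampled at 1 h (MS_E) or 34 days (MS_A). PLA animals received a placebo injection of saline and were sampled at 1 h (PLA_E) or 34 days (PLA_A). Each of the 5 groups had 2 libraries. Healthy rats are not among these libraries, the ages are not given in the sources used here, and MS and PLA differ both in what was applied and in where it was applied. The labels call the tissue muscle lying under the skin, the methods of the study call it subcutaneous tissue with muscle in it, and the design text also speaks of blood. Nothing states whether the 2 libraries of a group came from different rats, so that p-values measure the spread between libraries, which may be technical.

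miR-29 acts by pairing its seed, bases 2 to 8, with messenger RNAs, and its best known targets encode matrix proteins such as the fibrillar collagens, elastin and fibrillin. It is therefore widely described as a brake on collagen synthesis and fibrosis, and in skeletal muscle it is also studied for its part in differentiation. Each hairpin is cut into a duplex of which one strand, here the 3p arm, is mostly kept in the silencing complex, while the 5p arm is mostly degraded. The levels given are cpm scaled by the trimmed mean of M-values (TMM), and a level or fold change of a miRNA in bulk tissue cannot tell fewer cells that express it from less of it per cell.

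The mature sequences of the 3 main arms are shown because they share their first 9 bases and differ by so few bases that reads could be exchanged between them. They were matched by name to RefSeq (build GRCr8), are written 5′ to 3′, and have the seed in capitals.

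rno-miR-29a-3p: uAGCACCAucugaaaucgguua

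rno-miR-29b-3p: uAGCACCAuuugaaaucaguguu

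rno-miR-29c-3p: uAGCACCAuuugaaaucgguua

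The seed AGCACCA was held by these 3 of the 693 mature names in the RefSeq table. Counted from the 5′ end, miR-29a-3p and miR-29c-3p were identical at 21 of 22 bases and differed by C10U alone (the base of miR-29a first). miR-29b-3p differed from miR-29a-3p by C10U, G18A, U21G and A22U, and from miR-29c-3p by A18G, G21U and U22A (the base of miR-29b first). The number of mismatches that the counting allowed is not given in the sources used here, so that the split of reads between miR-29a-3p and miR-29c-3p is less certain than that between either of them and miR-29b-3p.

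The family comes from 4 hairpins in 2 clusters. On chromosome 4, minus strand, Mir29b1 lies 291 bases upstream of Mir29a, with miR-29b-3p at chr4:60618342-60618364 and miR-29a-3p at chr4:60617968-60617989. On chromosome 13, plus strand, Mir29b2 lies 447 bases upstream of Mir29c, with miR-29b-3p at chr13:109098882-109098904 and miR-29c-3p at chr13:109099412-109099433, and both hairpins lie within the extent of a long non-coding RNA gene, LOC102550527. RefSeq also places hairpins on the opposite strand over Mir29a (Mir3556a), Mir29b1 (Mir3587) and Mir29c (Mir3556b), and their mature miRNAs had 0 counts in 10 of 10 libraries. The 2 hairpins of miR-29b give the same 3p arm, and the tables list nearly the same reads at both, with a difference of 0 to 7 reads in a library, so that miR-29b-3p reads cannot be assigned to a cluster. Their 5p arms differ and are shown for that reason, again with bases 2 to 8 in capitals.

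rno-miR-29b-1-5p: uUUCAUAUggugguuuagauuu

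rno-miR-29b-2-5p: cUGGUUUCacaugguggcuuag

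Before the values, 1 property of the libraries has to be stated. In each group 1 library (CIA_B 1, MS_E 2, PLA_E 1, MS_A 2 and PLA_A 1) had a high level of the muscle miRNA miR-1-3p (80416 to 122986 cpm), whereas the remaining libraries had 10117 to 15567 cpm. Reads on miRNAs ranged from 1513799 in CIA_B 1 to 8926170 in MS_E 1. Skeletal muscle markers (4 of 4 detected) summed to between 83910 and 268531 cpm, so that muscle miRNAs were present in every library. Of these markers miR-206-3p was divided likewise (12034 to 16100 against 1143 to 1868 cpm). The sum was divided less, from 241072 and 91579 cpm in CIA_B 1 and 2 to 188900 and 159997 cpm in PLA_A 1 and 2. In PLA_E and PLA_A, miR-133a-3p and miR-133b-3p together were higher in the library with less miR-1-3p. Whether the division by miR-1-3p reflects muscle content was not tested.

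The main arms were expressed at very different levels. Ranked by mean level among the 359 miRNAs tested, miR-29a-3p was 40th, miR-29c-3p 71st and miR-29b-3p 137th, and between their lowest and highest library they varied 3.33-fold, 5.05-fold and 4.65-fold. Together they took from 0.0580% of the miRNA reads of MS_E 1 to 0.318% of those of PLA_E 1.

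The level of miR-29a-3p, the most abundant member, in CIA_B was 996 and 1163 cpm (replicates 1 and 2 in that order), against 663 and 1245 cpm in MS_E, 1606 and 1402 cpm in PLA_E, 1783 and 1162 cpm in MS_A and, highest, 1746 and 2207 cpm in PLA_A. The lowest library was MS_E 1 and the highest PLA_A 2. The means ran in the order MS_E (954 ± 412 cpm, SD, n = 2), CIA_B (1079 ± 118), MS_A (1473 ± 439), PLA_E (1504 ± 144) and PLA_A (1977 ± 326). Of these neighbours, only PLA_E and PLA_A had libraries that did not overlap, as did 15.3% of all tested miRNAs with PLA_A higher.

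The level of miR-29b-3p, the least abundant main arm, was 23.4 and 19.6 cpm in the CIA_B libraries. It was 25.2 and 42.6 cpm in MS_E with 91.0 and 21.5 cpm in PLA_E at 1 h, and 28.7 and 34.4 cpm in MS_A with 65.5 and 75.3 cpm in PLA_A at 34 days. These rest on 27 counts in CIA_B 1 and 78 to 679 counts elsewhere. The PLA_E libraries differed 4.23-fold, more than those of any other group, and PLA_E 2 was the only library after therapy that lay within the range of CIA_B. The means ran from CIA_B (21.5 ± 2.69 cpm, SD, n = 2) through MS_A (31.5 ± 4.01), MS_E (33.9 ± 12.3) and PLA_E (56.3 ± 49.1) to PLA_A (70.4 ± 6.92), and of these neighbours only CIA_B and MS_A did not overlap, as in 16.2% of all tested miRNAs with MS_A higher. The gap between CIA_B 1 (23.4 cpm) and MS_A 1 (28.7 cpm) was less than counting error.

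The level of miR-29c-3p was 277 and 225 cpm in the CIA_B libraries. It was 112 and 365 cpm in MS_E with 552 and 277 cpm in PLA_E at 1 h, and 371 and 546 cpm in MS_A with 564 and 551 cpm in PLA_A at 34 days. The libraries lay closest together in PLA_A (557 ± 9.32 cpm, SD, n = 2). MS_E was at 238 ± 179 cpm, CIA_B at 251 ± 36.5 cpm, PLA_E at 414 ± 194 cpm and MS_A at 459 ± 124 cpm, so that the means ran from MS_E through CIA_B, PLA_E and MS_A to PLA_A. Of these neighbours, CIA_B and PLA_E did not overlap (as in 11.7% of all tested miRNAs with PLA_E higher). MS_A and PLA_A did not overlap either (as in 12.5% with MS_A lower). Each of these gaps was less than counting error.

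**Figure D1:**
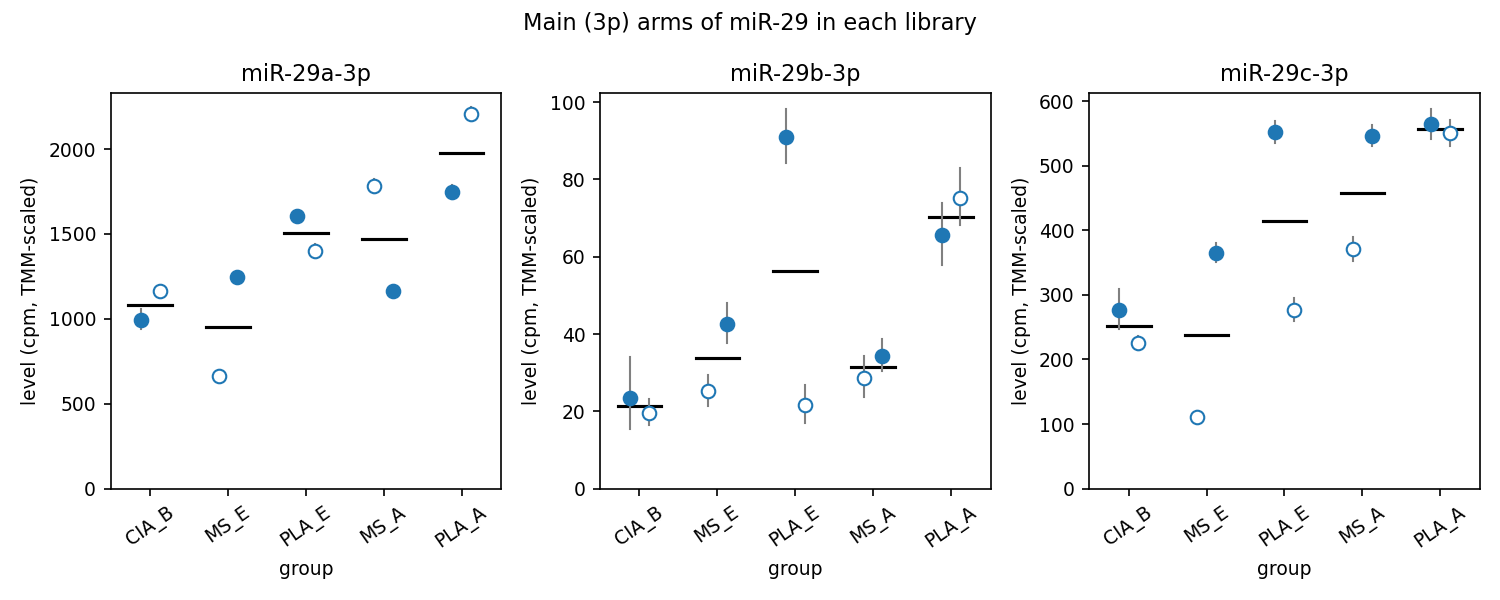
Level (cpm, TMM-scaled, linear axis from 0) of the 3 main arms in each library. Circles are libraries, filled for the library of each group with more miR-1-3p, grey lines are 95% Poisson intervals (counting error only) and bars are group means. The 2 PLA_A libraries lay close together for miR-29b-3p (65.5 and 75.3 cpm) and miR-29c-3p (564 and 551 cpm), whereas the PLA_E libraries lay apart (91.0 and 21.5 cpm for miR-29b-3p).

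The 5p arms were minor but mostly detectable. miR-29c-5p was the strongest at 15.9 to 69.6 cpm, and its reads amounted to 4.30% to 18.9% of those of miR-29c-3p (median 9.98%). miR-29a-5p lay between 4.33 and 20.7 cpm, only 0.380% to 1.57% of miR-29a-3p (median 0.594%), although it belongs to the most abundant member. miR-29b-2-5p lay between 0.828 and 6.92 cpm on 3 to 52 counts a library, and came to 3.68% to 29.6% of miR-29b-3p, a share whose highest value rests on 8 and 27 counts in CIA_B 1. miR-29b-1-5p, the 5p arm of the chromosome 4 hairpin, had 0 counts among 53057346 reads. A count of 0 allows up to 3 counts, which is 0.336 to 1.98 cpm of the miRNA reads of a library before TMM scaling and covers counting error only. In the Mir29b1 hairpin the seed of miR-29b-2-5p, UGGUUUC, also occurs, beginning upstream of the start named for miR-29b-1-5p. Whether reads that begin there were counted is not given in the sources used here.

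**Figure D2:**
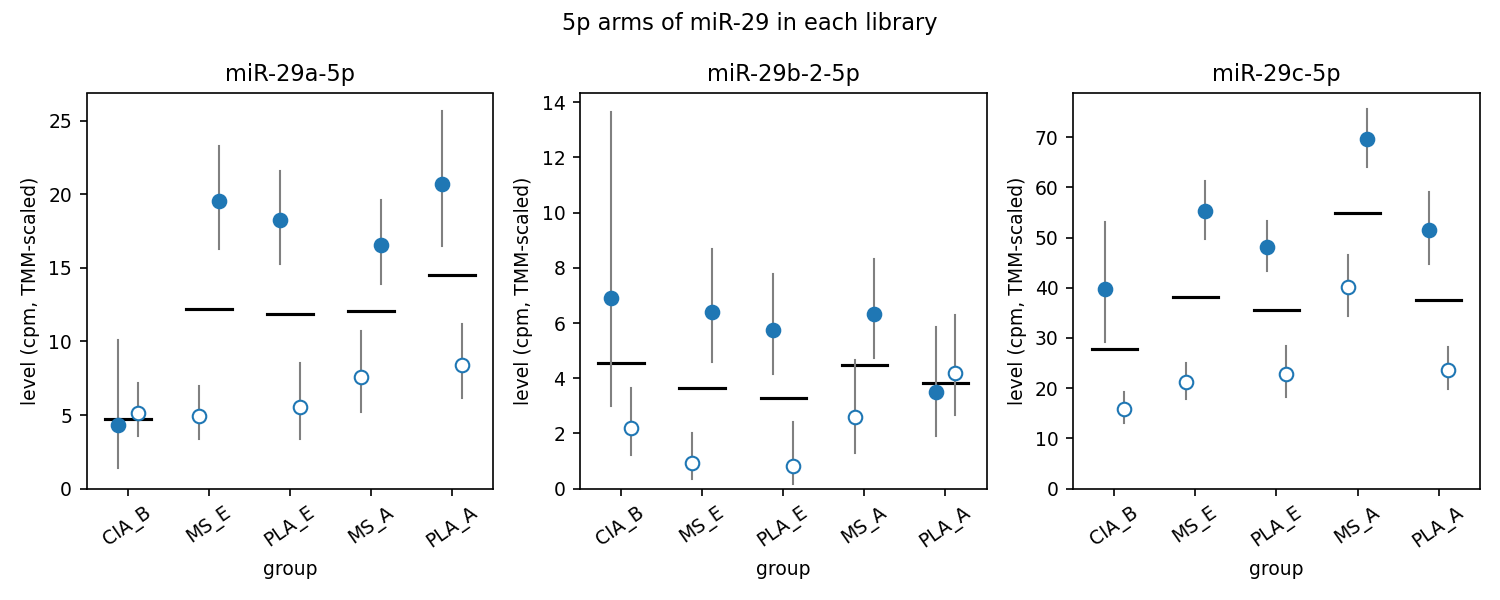
Level (cpm, TMM-scaled, linear axis from 0) of the 3 detected 5p arms in each library, with the symbols of the plot of the main arms (filled circles, the library of each group with more miR-1-3p). miR-29c-5p lay higher in the filled library of 5 of 5 groups and miR-29a-5p in 4 of 5, with CIA_B as the exception.

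The first question of the design is whether the tissue differed from CIA_B after placebo or stimulation. In PLA_A, the level of miR-29b-3p was 65.5 and 75.3 cpm against 23.4 and 19.6 cpm in CIA_B, fitted as 1.72 on the log2 scale (standard error 0.66, 95% interval 0.22 to 3.22), or 3.29-fold. It passed the thresholds used by the study (unadjusted p under 0.05 and a change over 2-fold) in edgeR's quasi-likelihood test, but not a threshold of 0.05 after Benjamini-Hochberg adjustment over 359 miRNAs (adjusted p = 0.543 in edgeR). It was the only family arm among 6 that passed in any of the 11 comparisons. In the same comparison 7.24% of all tested miRNAs passed (5.01% as higher), so that 1 of 6 is to be read against that share. The call was lost without CIA_B 1, CIA_B 2 or PLA_A 2, where the log2 fold changes were 1.76, 1.59 and 1.51 with adjusted p = 0.928, adjusted p = 0.707 and adjusted p = 0.734 in edgeR, and also when a mean of at least 100 counts was required (1.59).

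The other main arms lay on the same side in PLA_A against CIA_B. The log2 fold change was 1.15 for miR-29c-3p (95% interval -0.19 to 2.49, adjusted p = 0.547 in edgeR) and 0.87 for miR-29a-3p (95% interval -0.12 to 1.87, adjusted p = 0.547 in edgeR). Neither passed, although miR-29c-3p did without MS_E 1 or MS_E 2 (1.15 in each case), which enter through the shared spread. miR-29c-3p also passed (1.18, adjusted p = 0.296 in edgeR) in a fit chosen after seeing the data, with the division of each group by miR-1-3p as a term. That fit passed 49 of all 359 miRNAs here in place of 26. The libraries of both groups did not overlap for 3 of 3 main arms, as higher in PLA_A, against 20.9% of all tested miRNAs. The median log2 fold change of the main arms was 1.15 and that of all 359 miRNAs 0.12. The leukocyte markers summed to 14586 cpm in PLA_A 1 and to 1638 to 3402 cpm in the other libraries, and their part in the result was not tested. Without PLA_A 1 the log2 fold change of miR-29b-3p was 1.84.

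In PLA_E against CIA_B the log2 fold changes were 1.40 for miR-29b-3p (95% interval -0.09 to 2.89, adjusted p = 0.994 in edgeR), 0.72 for miR-29c-3p and 0.48 for miR-29a-3p, and none passed (0.557% of all tested miRNAs did). The miR-29b-3p value rested on PLA_E 1: it was 0.01 without that library and 2.12, which passed, without PLA_E 2. It also passed with DESeq2 (1.40). In MS_A against CIA_B they were 0.87 for miR-29c-3p, 0.56 for miR-29b-3p and 0.45 for miR-29a-3p, and none passed (1.11% of all did). In MS_E against CIA_B they were 0.67 for miR-29b-3p, -0.08 for miR-29c-3p and -0.18 for miR-29a-3p, and none passed (6.41% of all did). The direction for miR-29a-3p and miR-29c-3p turned with the scaling, to 0.02 and 0.25 when only library size was used, and with single libraries. Without MS_E 1 the values of miR-29a-3p and miR-29c-3p were 0.14 and 0.49, and without MS_E 2 they were -0.70 and -1.17. All these comparisons share the CIA_B libraries, of which CIA_B 1 was the shallowest.

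Over the 4 groups after therapy together, miR-29b-3p lay above both CIA_B libraries in 7 of 8 libraries, with a difference of 0.97 in mean log2 cpm (exact two-sided permutation test, p = 0.0889, raw; smallest p that 8 against 2 allows 0.0444). The same exact permutation test gave p = 0.356 for miR-29a-3p (6 of 8 libraries above) and p = 0.400 for miR-29c-3p (7 of 8 above). In the fit across all miRNAs the log2 fold changes were 1.09, 0.41 and 0.67, and no family arm passed (4.46% of all did). Without PLA_E 2 the value of miR-29b-3p was 1.27 and passed.

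**Figure D3:**
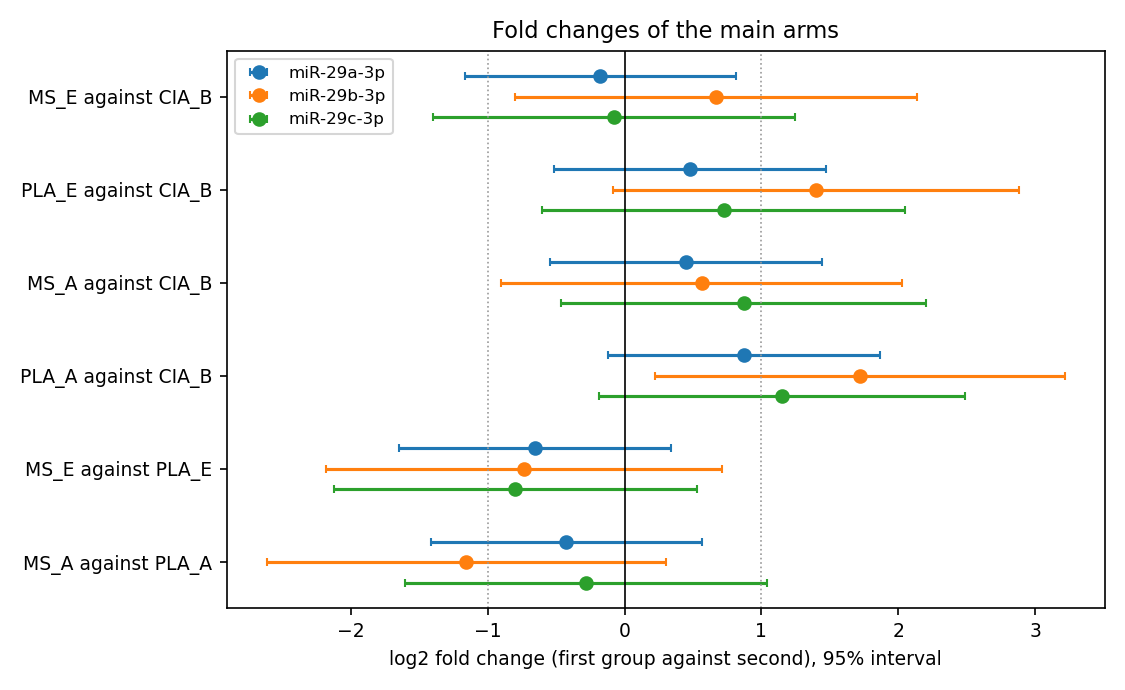
Log2 fold changes (x axis, first group against second, 0 is no difference, dotted lines mark 2-fold) of the 3 main arms with 95% intervals from the edgeR fit, for the 4 comparisons with CIA_B and the 2 of MS with PLA. The interval of miR-29b-3p in PLA_A against CIA_B (0.22 to 3.22) is the only one that does not reach 0.

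The second question is whether stimulation and placebo differed at the same time. At 34 days miR-29b-3p was at 28.7 and 34.4 cpm in MS_A and at 65.5 and 75.3 cpm in PLA_A, which is -1.16 on the log2 scale (standard error 0.65, 95% interval -2.62 to 0.30, adjusted p = 0.999 in edgeR). The libraries did not overlap, as did those of 12.5% of all tested miRNAs in that direction. miR-29c-3p and miR-29a-3p had -0.28 (95% interval -1.60 to 1.04) and -0.42 (95% interval -1.42 to 0.57). Those of miR-29c-3p did not overlap either, but by little, 371 and 546 cpm against 564 and 551 cpm, and its sign turned to 0.03 without MS_A 1. No family arm passed, against 1.95% of all, but miR-29b-3p did without PLA_E 1 or PLA_E 2 (-1.16 in each case) and with the division by miR-1-3p as a term (-1.21, adjusted p = 0.999 in edgeR), where 14 of all 359 passed in place of 7.

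At 1 h the log2 fold changes of MS_E against PLA_E were -0.80 for miR-29c-3p (95% interval -2.13 to 0.53), -0.73 for miR-29b-3p (95% interval -2.18 to 0.71) and -0.66 for miR-29a-3p (95% interval -1.65 to 0.34). For miR-29a-3p the libraries did not overlap, 663 and 1245 cpm against 1606 and 1402 cpm, as in 11.7% of all tested miRNAs in that direction. No arm passed (3.9% of all did), but this changed when single libraries were left out. miR-29b-3p was at -1.44 without PLA_E 2, which passed, and at 0.65 without PLA_E 1. miR-29c-3p was at -1.89 without MS_E 2, which passed, and at -0.25 without MS_E 1. The main arms thus had fitted values under 0 in MS against PLA at both times, 3 of 3 each, where 47.4% (34 days) and 52.1% (1 h) of all tested miRNAs had values above 0. Their intervals all include 0 and also include a 2-fold lower level. The detected 5p arms did not share this direction. In MS against PLA, miR-29a-5p, miR-29b-2-5p and miR-29c-5p had 0.03, 0.10 and 0.10 at 1 h. At 34 days they had -0.25, 0.24 and 0.55, and the intervals of these arms all include 0 as well.

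The third question is whether the level differed between 1 h and 34 days. Over both arms miR-29c-3p had a log2 fold change of 0.69 (95% interval -0.25 to 1.62, adjusted p = 0.801 in edgeR) and miR-29a-3p one of 0.51 (95% interval -0.19 to 1.21, adjusted p = 0.801 in edgeR), with 0.11 for miR-29b-3p, whose sign turned to -0.09 when only library size was used. No family arm passed (5.29% of all did), but miR-29c-3p did without MS_E 2 (1.23). The exact two-sided permutation test of 4 against 4 libraries gave raw p = 0.114 for miR-29c-3p, 0.171 for miR-29a-3p and 0.657 for miR-29b-3p, and the smallest p it allows is 0.0286. In all, 14 such tests were run, with ratios included.

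Within MS, the log2 fold changes of 34 days against 1 h were 0.95 for miR-29c-3p, 0.63 for miR-29a-3p and -0.10 for miR-29b-3p, and none passed (3.9% of all did). The value of miR-29c-3p was 2.04, which passed, without MS_E 2 and 0.39 without MS_E 1, and it also passed with the division by miR-1-3p as a term (1.07, adjusted p = 0.450 in edgeR), where 30 of all 359 did in place of 14. Within PLA they were 0.43, 0.39 and 0.32, and none passed (2.79% of all did), but miR-29b-3p did without PLA_E 1 (1.71), and without PLA_E 2 it was at -0.40. The difference between these changes, MS minus PLA, was 0.52 for miR-29c-3p (95% interval -1.35 to 2.39), 0.23 for miR-29a-3p (95% interval -1.17 to 1.63) and -0.42 for miR-29b-3p (95% interval -2.46 to 1.61), and no arm passed (3.34% of all did), but miR-29b-3p did without PLA_E 1 (-1.81).

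None of the 3 detected 5p arms passed in any comparison, and their fitted values did not all lie above CIA_B. miR-29a-5p was at 4.33 and 5.15 cpm in CIA_B, and its log2 fold changes against CIA_B lay between 1.31 in PLA_E and 1.59 in PLA_A, with 95% intervals that all reach 0 (for PLA_A, -0.42 to 3.59). Its CIA_B libraries lay below those of PLA_E, MS_A and PLA_A without overlap (as in 11.7%, 16.2% and 20.9% of all tested miRNAs), but rest on 5 and 35 counts. The gap to PLA_E, 5.15 cpm in CIA_B 2 and 5.52 cpm in PLA_E 2, was less than counting error. miR-29c-5p had 1.00 in MS_A (95% interval -0.64 to 2.64) and 0.38 to 0.48 in the other groups against CIA_B. In MS_A against CIA_B it passed with the division by miR-1-3p as a term (1.08, adjusted p = 0.848 in edgeR), where 12 of all 359 (3.34%) did in place of 4. miR-29b-2-5p had its highest mean in CIA_B (4.57 cpm, from 6.92 and 2.21 cpm on 8 and 15 counts), with means of 3.30 cpm in PLA_E to 4.47 cpm in MS_A elsewhere. Its fitted log2 fold changes against CIA_B lay between -0.26 in PLA_E and 0.14 in MS_A, with intervals that all include 0 (for PLA_E, -2.82 to 2.29).

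Ratios within a library do not depend on the scaling between libraries. For each 100 reads of miR-29a-3p there were 16.8 reads of miR-29c-3p in MS_E 1 and 47.0 in MS_A 2, with a median of 26.4. The ratio was higher in the library with more miR-1-3p in 5 of 5 groups, by 1.29-fold in PLA_A to 2.26-fold in MS_A. The level of miR-29c-3p itself was higher there in 5 of 5 groups (1.02-fold in PLA_A to 3.27-fold in MS_E) and that of miR-29c-5p in 5 of 5 (1.74-fold to 2.61-fold), whereas miR-29a-3p was higher in 2 of 5, and miR-29b-3p, miR-29a-5p and miR-29b-2-5p each in 4 of 5.

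Of all tested miRNAs, 63 of 359 (17.5%) were higher in the library with more miR-1-3p in 5 of 5 groups and 50 (13.9%) lower. This division was found in the data and is no group of the study, and it is given without a test. Its part in the comparisons between groups was measured only by adding it to the fit. The ratio of miR-29a-5p to miR-29a-3p was divided likewise in 4 of 5 groups, at 1.13% to 1.57% in the library with more miR-1-3p and 0.380% to 0.745% in the other. In CIA_B it was 0.434% and 0.443%.

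**Figure D4:**
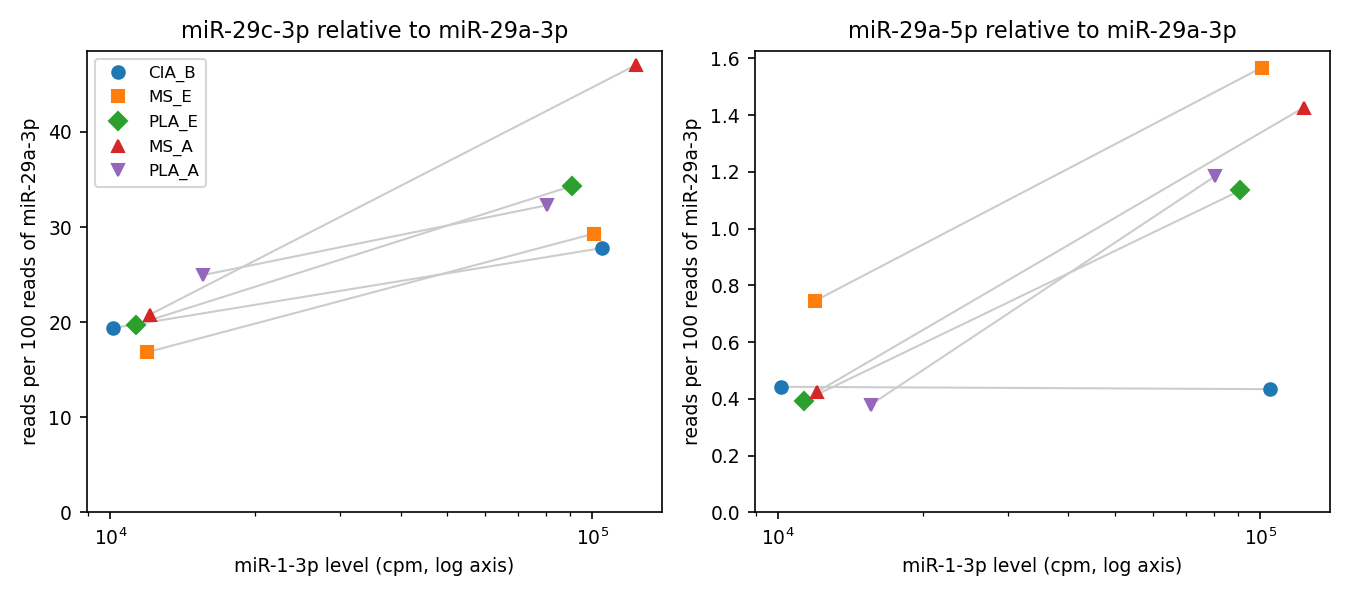
Reads of miR-29c-3p (left) and of miR-29a-5p (right) per 100 reads of miR-29a-3p in each library (y axes, linear from 0) against the level of miR-1-3p (x axis, cpm, log scale). Grey lines join the 2 libraries of a group. The line of miR-29c-3p slopes upward in 5 of 5 groups, up to 47.0 in MS_A, and that of miR-29a-5p in 4 of 5.

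The ratio of miR-29b-3p to miR-29a-3p was 2.35% and 1.68% in the CIA_B libraries. It was 3.80% and 3.42% in MS_E with 5.66% and 1.53% in PLA_E at 1 h, and 1.61% and 2.96% in MS_A with 3.75% and 3.41% in PLA_A at 34 days. It lay above both CIA_B libraries in 6 of 8 libraries after therapy (exact two-sided permutation test of the log2 ratio, raw p = 0.267). For 34 days against 1 h the same exact permutation test gave raw p = 0.629 for this ratio and 0.457 for that of miR-29c-3p to miR-29a-3p. Of the 14 raw p-values none was under 0.05, so that no adjustment could bring one there.

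The main arms followed each other in part over the 10 libraries. On the log2 cpm scale Pearson's r was 0.81 between miR-29a-3p and miR-29c-3p, which come from different chromosomes, 0.73 between miR-29b-3p and miR-29c-3p, and 0.62 between miR-29a-3p and miR-29b-3p. These and the following are descriptions over libraries that share groups, depth and the division by miR-1-3p. Of 353 tested miRNAs outside the family, those most like miR-29a-3p were miR-24-2-5p (r = 0.94), miR-101b-3p (0.85) and miR-101a-3p (0.84). Those most like miR-29c-3p were miR-22-5p (0.945), miR-101a-5p (0.92) and miR-190a-5p (0.91), and miR-501-3p was least like both (-0.89 and -0.88). Those most like miR-29b-3p were miR-196b-3p (0.88), miR-98-3p (0.82) and miR-872-5p (0.80), of which miR-196b-3p reached 4.42 cpm and miR-98-3p 7.47 cpm at most, and miR-409a-5p was least like it (-0.83).

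The other miRNAs known to act on matrix or fibrosis were followed as a list of 27 names, of which 25 were tested: 6 described as profibrotic and 19 as antifibrotic. In PLA_A against CIA_B, 2 of 25 passed the thresholds of the study, against 7.24% of all. miR-21-5p, described as profibrotic, was at 5311 and 6661 cpm against 1461 and 3067 cpm, or 1.40 on the log2 scale (edgeR adjusted p = 0.543, standard error 0.54). miR-19a-3p, described as antifibrotic, had 2.22 (edgeR adjusted p = 0.543, standard error 0.87) on 1 and 11 counts in CIA_B. Over the antifibrotic names, 18 of 19 had a fold change above 0 there (median 0.56), whereas 55.4% of all miRNAs had (median 0.12). Of the profibrotic names 4 of 6 did (median 0.02). The 18 include miR-200b-3p and miR-200c-3p, with 0 and 1 counts each in CIA_B, which passed the filter through libraries after therapy alone. Against the same CIA_B libraries the antifibrotic tally was 17 of 19 in MS_A, 14 of 19 in PLA_E and 10 of 19 in MS_E.

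In MS_E against CIA_B, 6 of the 19 antifibrotic names passed as higher, against 5.29% of all as higher, and 0 of 6 profibrotic names did. The 6 were miR-19a-3p, miR-19b-3p, miR-141-3p and miR-200a-3p, miR-200b-3p and miR-200c-3p, and the last 4 also stand on the list of epithelial markers. In CIA_B 1 and 2 these 4 rest on few reads, with 0 and 1 counts for miR-200b-3p, 0 and 1 for miR-200c-3p, 4 and 5 for miR-200a-3p and 2 and 20 for miR-141-3p. miR-200b-3p and miR-200c-3p reached the level of the filter in libraries after therapy alone, so that no weight can be put on their passing as higher than CIA_B. Those markers summed to 447 cpm in MS_E 1 and to 33.8 to 135 cpm in the other libraries, and their part in the result was not tested. In the same comparison the 3 main arms of miR-29 had a median of -0.08, against 0.06 for all miRNAs.

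In MS_E against PLA_E, 5 of the 25 names passed, all described as antifibrotic, against 3.9% of all. Higher were miR-141-3p, miR-200b-3p, miR-19a-3p and miR-19b-3p. Lower was miR-101b-3p, for which the MS_E libraries had 169 and 206 cpm and those of PLA_E 402 and 498 cpm (-1.26 on the log2 scale, edgeR adjusted p = 0.832). In MS_A against MS_E, 3 passed against 3.9% of all: miR-30e-5p was higher, miR-141-3p and miR-200b-3p lower. After therapy against CIA_B, 3 passed, each as higher, against 4.46% of all in either direction (miR-19a-3p, miR-200b-3p and miR-200c-3p, with the CIA_B counts given above, and miR-200c-3p also had 0 counts in PLA_E 2). For 34 days against 1 h over both arms, 1 passed, as lower, against 5.29% of all in either direction (miR-200b-3p). In the difference of MS minus PLA in time, 3 passed, each below 0, against 3.34% of all in either direction (miR-141-3p, miR-19a-3p and miR-19b-3p). No name passed in PLA_E or MS_A against CIA_B, MS_A against PLA_A or PLA_A against PLA_E (0.557%, 1.11%, 1.95% and 2.79% of all did). The values that involve MS_E carry the epithelial markers of MS_E 1 given above, and their part was not tested.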

How the data were processed

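Small RNA of 10 rat libraries, 2 in each of 5 groups, was sequenced after TruSeq small RNA preparation. The authors trimmed and aligned the reads with miRDeep2 to genome rn4 and miRBase and deposited, per library, read counts per mature miRNA and precursor (base calling by CASAVA 1.8 and alignment by Bowtie, per the submitters' processing notes). Each file held 764 rows for 723 mature miRNAs. Of the 35 miRNAs listed at several precursors the largest read count was used. A series-wide table was left out, since the names of its 20 columns match no sample label. Coordinates are those of RefSeq on GRCr8, not rn4.

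The miRNAs that reached 1 cpm of the library total, before TMM scaling, in 5 or more of the 10 libraries were kept (359 of 723). Their counts were then scaled by TMM (factors 0.675 to 1.41). With edgeR 4.0.16, 1 mean per group was fitted over all 10 libraries (glmQLFit and glmQLFTest, R 4.3.3). The prior count was 0.125 for fold changes and 2 for log2 cpm in correlations and permutation tests. The filter and thresholds (unadjusted p under 0.05, over 2-fold) follow the study. Its limma-voom (limma 3.58.1) was an alternative, as were DESeq2 1.42.0, its size factors, scaling by library size alone, dropping the filter or raising it to a mean of 100 counts, fitting the 2 groups of a comparison by themselves, a replicate block, counts summed over precursors, and leaving out each library. Standard errors were computed from the fold change and the F statistic. With 2 libraries a group, an exact permutation test cannot go below p = 0.333, so it was run (scipy 1.17.1) only on the pooled comparisons. Poisson and zero-count limits cover counting error only, since reads carry no molecular identifiers.

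The members, the lists of matrix miRNAs and of cell markers, and the tests were chosen with earlier results of these data known. Genes outside the family are named by a rule: the 3 most and 1 least alike by Pearson's r with each main arm, and at most 4 names of the matrix list per comparison by smallest p (6 are named for MS_E against CIA_B and 5 for MS_E against PLA_E, those beyond 4 after their values were seen). The fits were also run on simulated counts with known fold changes. Those counts were drawn independently and without the division by miR-1-3p within groups, so that they cannot show the error rates in these data. Replicate numbers did not pair the libraries (deviations of the replicate 1 libraries correlated from -0.544 to 0.587 between groups), and no libraries were duplicates (chi-square per degree of freedom at least 1102). Summed levels of the remaining marker lists ranged from 56.5 to 1026 cpm (slow muscle fibre), 1418 to 3495 cpm (fibroblast and mesenchyme), 17.4 to 88.6 cpm (erythroid) and 4275 to 14719 cpm (endothelial). Slow fibre markers summed to 827 and 585 cpm in CIA_B and 56.5 and 94.5 cpm in MS_E. They passed as lower (2 of 2) in MS_E and after therapy against CIA_B (6.41% and 4.46% of all in either direction). In PLA_A against CIA_B, 3 of 5 leukocyte and 2 of 3 erythroid markers passed as higher (5.01% of all). No fibroblast or endothelial marker passed in any comparison. The part of these markers in the results was not tested.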

Additional observations from a re-analysis of the deposited data

Results flagged for a closer look

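One value stood apart among 18 sets of 4 or more libraries checked (Dixon's ratio, which flags about 1 in 20 sets by chance). Among the 4 libraries at 34 days, miR-29c-3p was at 371 cpm in MS_A 1 and at 546 to 564 cpm in the other 3, so that the gap to the nearest library made up 0.910 of the whole range. MS_A 1 is also the MS_A library with less miR-1-3p. The relation between them was not tested.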

How the results depend on the processing

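Of 651 log2 fold changes of the main arms under alternatives, 608 kept their direction and their side of the thresholds, and of 45 group means 35 stayed within 1 SD. No family arm reached an adjusted p under 0.05 under any alternative. The count of arms passing rose from 0 to 1 in PLA_E against CIA_B with DESeq2 (miR-29b-3p, 1.40) and fell from 1 to 0 in PLA_A against CIA_B with a mean of at least 100 counts, where miR-29b-3p had 1.59. Over its other alternatives with all libraries its adjusted p ran from 0.296 to 0.927. With the division by miR-1-3p as a term, chosen after seeing the data, the count was 1 in MS_A against CIA_B (miR-29c-5p, 1.08, with 12 of all 359 passing in place of 4), 2 in PLA_A against CIA_B (miR-29b-3p and miR-29c-3p, 1.18), 1 in MS_A against PLA_A (miR-29b-3p, -1.21) and 1 in MS_A against MS_E (miR-29c-3p, 1.07). Summing over precursors counts miR-29b-3p doubly by construction, with a mean of 81.8 cpm and a mean ratio to miR-29a-3p of 0.0600. Signs turned with library size only in MS_E against CIA_B (0.0236 for miR-29a-3p, 0.25 for miR-29c-3p) and over both arms in time (-0.0921 for miR-29b-3p), and with a mean of at least 100 counts (0.0423 for miR-29c-3p and -0.0906 for miR-29b-3p, respectively). Library size only moved the median of all miRNAs to 0.43 in PLA_E and 0.42 in PLA_A against CIA_B.

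Leaving out 1 library gave 0 to 2 passing arms in PLA_A against CIA_B (0 without CIA_B 1, CIA_B 2 or PLA_A 2, and 2 without MS_E 1 or MS_E 2), 0 in MS_E and MS_A against CIA_B, and 0 to 1 in the other 8 comparisons. The main arms that came to pass there were miR-29b-3p without PLA_E 2 (2.12 in PLA_E against CIA_B, -1.44 in MS_E against PLA_E, 1.27 after therapy against CIA_B), without PLA_E 1 (1.71 in PLA_A against PLA_E, -1.81 in MS minus PLA) and without either of these (-1.16 in MS_A against PLA_A), and miR-29c-3p without MS_E 2 (-1.89 in MS_E against PLA_E, 2.04 in MS_A against MS_E, 1.23 over both arms in time). Fold changes of either sign then arose in MS_E against CIA_B (miR-29a-3p from -0.70 to 0.14, miR-29c-3p from -1.17 to 0.49), MS_E against PLA_E (miR-29b-3p from -1.44 to 0.65), MS_A against PLA_A (miR-29c-3p from -0.64 to 0.0262), MS_A against MS_E (miR-29b-3p from -0.38 to 0.33), PLA_A against PLA_E (miR-29b-3p from -0.40 to 1.71, miR-29c-3p from -0.0188 to 1.01), 34 days against 1 h (miR-29b-3p from -0.25 to 0.80), and the difference of MS minus PLA in time (miR-29a-3p from -0.11 to 0.76, miR-29b-3p from -1.81 to 0.28, miR-29c-3p from -0.064 to 1.61). MS_E 1, MS_E 2, PLA_E 1, PLA_E 2, MS_A 1 and MS_A 2 set these limits. The lone library of a group is then assumed to vary like the others. The replicate number as a block changed no count. With it miR-29b-3p in PLA_A against CIA_B had 1.73. The numbers do not pair the libraries, and a pairing crossed by correlation equals the division by miR-1-3p. Depth limits the 5p arms and miR-29b-3p in CIA_B 1, at 5 to 46 counts.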
